A study of Arabidopsis thaliana with 4 samples.

Results

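The NAC genes are a large plant family of transcription factors, and they were taken here as the genes whose reference transcripts are listed in a protein family named for "No apical meristem". The rule found 121 of the 22263 genes of the family list. Of these, 114 belong to the family of the NAC DNA-binding domain itself, and 7 belong to a family named for a C-terminal domain associated with it. All 121 identifiers were found in the RefSeq annotation TAIR10.1 as protein-coding genes. The words "NAC genes" below mean the 114, and the other 7 are described at the end.

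The aboveground parts of wild-type Arabidopsis thaliana, ecotype Col-0, were collected when the rosettes had completed their growth under long days. All libraries shared this genotype, tissue, and stage, and no library was treated. The ONT Pc data, in which cDNA is amplified by PCR and read through a nanopore, had 3 replicates, CTRL1, CTRL2, and CTRL3, each pooled from several plants, and the PacBio data had 1 library. The study compared sequencing platforms, so levels of NAC genes can be compared only between genes and between replicates of a single group.

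NAC proteins carry a conserved DNA-binding domain near the N-terminus and a variable tail that activates or represses transcription. In leaves, members of the family are known for relaying abscisic acid (ABA), drought, and wounding, and for timing senescence, the programmed breakdown of the ageing leaf. Other members switch on the secondary walls of xylem vessels, separate organs at their boundaries, or stay anchored in a membrane until a stress releases them.

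For each gene in each ONT Pc replicate, the authors deposited CPM, a read count scaled to 1000000 reads. All values above 0 were whole multiples of 1 read, within 0.05 read, so that reads could be recovered. CTRL1 held 8122432 reads, CTRL2 7386184, and CTRL3 6835029. The deposited columns add up to different totals, so each was rescaled to its own reads, and CPM below means this rescaled value. The value of a single read was 0.123, 0.135, and 0.146 CPM in these replicates, in that order, and a count of 0 allows up to 3 reads, or 0.369, 0.406, and 0.439 CPM. PCR copies are not independent molecules, so these limits cover counting error only. Markers fitted the labelled tissue. The leaf genes RBCS1A and LHB1B2 averaged 27166 and 20031 CPM, the root genes EXPA7 and COBL9 were not in the table, and the root gene CASP1 and the flower genes AP1, AP3, and AG had 0 to 7 reads in any replicate.

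The sequences that define the family are shown first. The stretch of 42 coding bases that opens the NAC domain was found by a residue pattern in the translated sequence of 7 of the 10 most abundant NAC genes. Coordinates are those of TAIR10.1, each sequence reads 5′ to 3′ along the gene, and capitals mark bases that differ from ANAC102.
ANAC102 (chr5:25527825-25527866, - strand): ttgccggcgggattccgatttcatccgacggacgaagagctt
ATAF2 (chr5:2860085-2860126, - strand): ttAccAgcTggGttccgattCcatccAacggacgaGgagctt
VNI2 (chr5:4196682-4196723, + strand): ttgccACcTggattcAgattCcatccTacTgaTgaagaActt
NAP (chr1:26122257-26122298, + strand): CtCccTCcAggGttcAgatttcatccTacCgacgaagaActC
RD26 (chr4:13708933-13708974, - strand): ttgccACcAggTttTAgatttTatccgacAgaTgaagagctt
ANAC078 (chr5:1244004-1244045, + strand): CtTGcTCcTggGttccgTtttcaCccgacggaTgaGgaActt
ATAF1 (chr1:268489-268530, + strand): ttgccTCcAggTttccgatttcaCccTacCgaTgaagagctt
ATAF2, whose coding sequence is the closest to that of ANAC102, differed at 7 of the 42 bases, and ANAC078 differed at 12. Over aligned coding sequence, ANAC102 and ATAF2 were 81.0% identical, and ORS1 and ORE1 80.6%. The median identity of a NAC gene to its closest relative in the family was 74.2% over 114 genes. Only 4 genes reached 90%, the pair NTM1 and NAC067 at 97% and the pair AT1G60300 and AT1G60340 at 90.2%, and levels of such pairs are uncertain because reads could be assigned to either copy.

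NAC genes in the rosette ranged from undetected to 102 CPM, and the 10 highest held 64.1% of the family's reads. Of the 114 genes, 93 were listed in the ONT Pc table and 21 were not. A read was found in any replicate for 86 genes and in all 3 replicates for 69. Reads in a single replicate only were found for 11 genes and reads in 2 replicates for 6, and the remaining 7 were listed at 0. More than 3 reads in every replicate were found for 51 genes, a mean of at least 1 CPM for 50, and a mean of at least 10 CPM for 22. CTRL1 held a read for 78 genes, CTRL2 for 77, and CTRL3 for 75, which followed the order of depth.

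The most abundant NAC gene was ANAC102, which is known from the response to low oxygen. Values are given below in the order of CTRL1, CTRL2, and CTRL3. ANAC102 had 636, 890, and 729 reads, or 78.3, 120, and 107 CPM, with a mean of 102 ± 21.5 CPM (SD, n = 3). ATAF2, known from wounding and pathogen responses, had 69.8, 116, and 91.7 CPM, with a mean of 92.6 ± 23.2 CPM. CTRL1 was the lowest and CTRL2 the highest for both genes. ANAC102 exceeded ATAF2 in 3 of 3 replicates, by 9.25 ± 5.34 CPM, more than the spread of that difference (exact two-sided sign-flip permutation p = 0.25, the smallest that 3 replicates allow).

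NAC036, which is known to restrict the growth of leaf cells when overexpressed, had 51.0, 109, and 101 CPM, with a mean of 86.7 ± 31.2 CPM. Its level in CTRL1 was at least 1.96-fold below the other replicates, and its order relative to ATAF2 was not resolved (difference 5.88 ± 13.9 CPM, higher in ATAF2 in 2 of 3 replicates). VNI2, a repressor that binds the vessel regulator VND7 and is tied to leaf longevity, had 55.4, 66.7, and 59.1 CPM, with a mean of 60.4 ± 5.78 CPM. NAP, a promoter of leaf senescence, averaged 39.6 ± 16.6 CPM. RD26, an activator induced by drought and ABA, had 25.1, 41.3, and 42.9 CPM, with a mean of 36.4 ± 9.83 CPM.

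Next in order stood ANAC078 with 29.2 ± 2.38 CPM, NAC027 with 27.7 ± 1.49 CPM, ANAC017 with 24.6 ± 2.91 CPM, and ATAF1 with 21.3 ± 4.37 CPM. Among the first 9 pairs of neighbours in the CPM order, 4 were separated by more than the spread of their difference and in every replicate. These were ANAC102 over ATAF2, VNI2 over NAP, NAC027 over ANAC017, and ANAC017 over ATAF1. The other 5 pairs were not separated. The order came from the means of the same replicates, so the direction of each mean difference was set by the ranking. Each of the 4 had p = 0.25 (exact two-sided sign-flip permutation), the smallest that 3 replicates allow.

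For comparison between genes of different length, levels were also taken per kilobase of annotated transcript. On this scale 9 of the 10 highest genes were the same, with NAC041 in the place of ANAC017. ANAC102 led with 77.3 CPM per kb, followed by NAC036 with 65.9, ATAF2 with 60.5, NAC027 with 46.7, VNI2 with 40.0, NAP with 31.7, and RD26 with 20.4 CPM per kb. ANAC102 exceeded NAC036 by 11.4 ± 8.33 CPM per kb in 3 of 3 replicates (exact two-sided sign-flip permutation p = 0.25). By the same rule, 6 of the first 9 neighbour pairs on this scale were separated, with the same limit on direction and p. The annotated transcript of NAC027 is only 593 bp long, and the gene stood at rank 8 in CPM and rank 4 per kb.

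ANAC102 alone took 12.6 ± 0.379% of the reads of the family. The 3 highest genes took 34.4 ± 3.12%, the 5 highest 46.8 ± 3.58%, and the 10 highest 64.1 ± 2.74%. The 34 genes with at least 60 reads over the replicates held 95.3 ± 0.704% of the family's reads, and the remaining listed genes shared the rest.

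**Figure D1:**
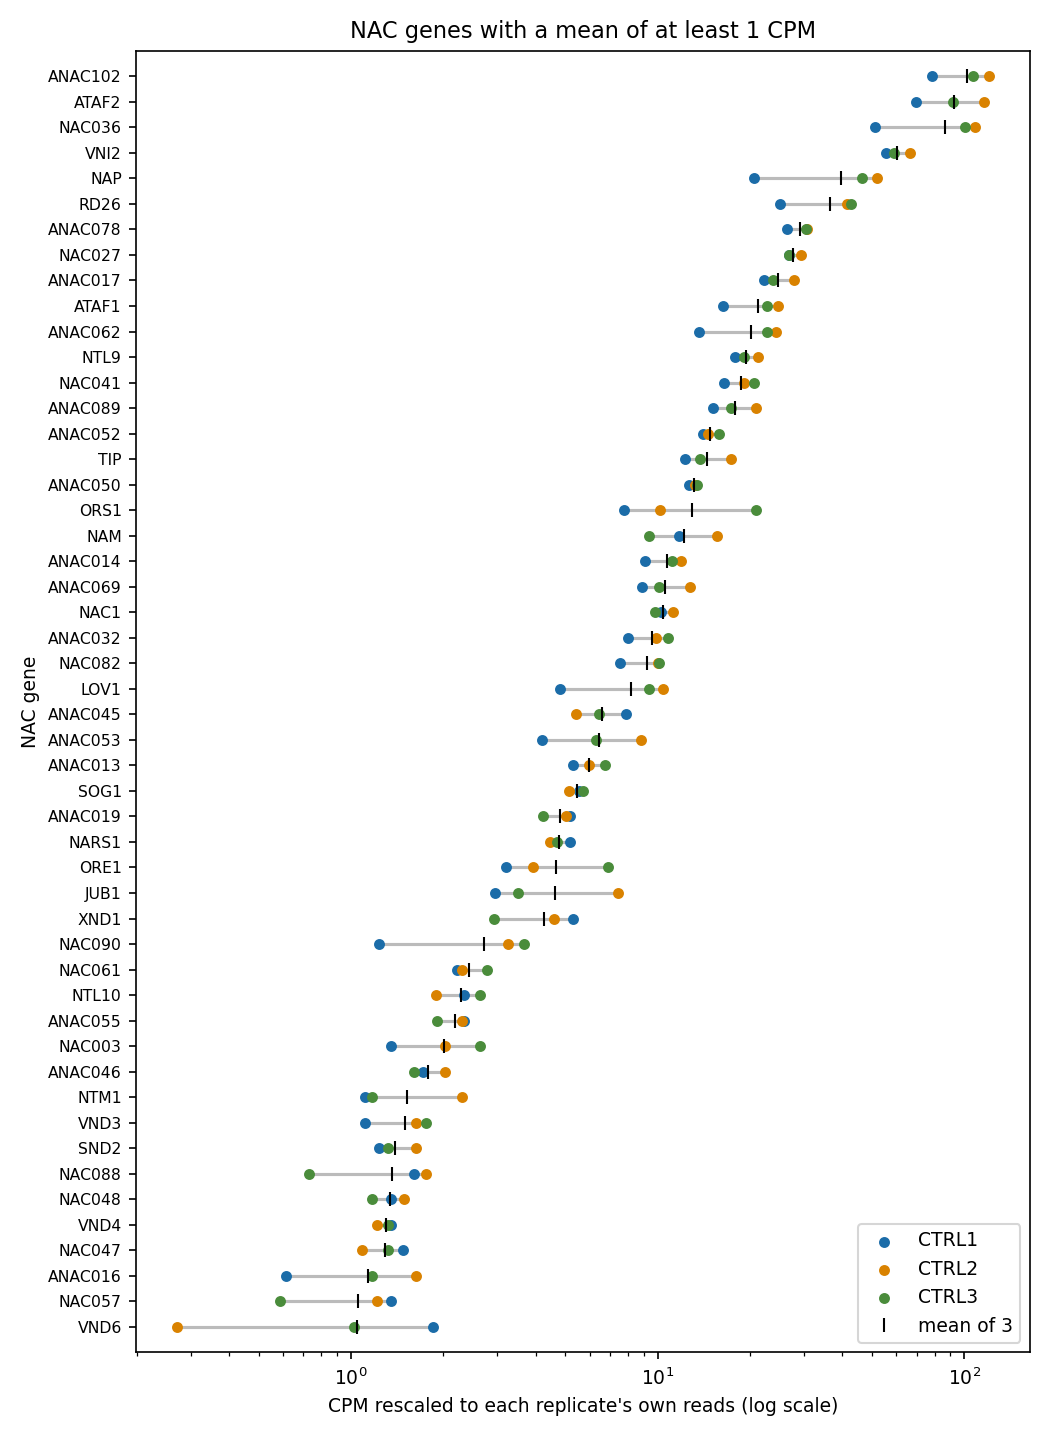
CPM of the 50 NAC genes with a mean of at least 1 CPM in CTRL1, CTRL2, and CTRL3 (colored points, log axis), with the mean of the 3 replicates as a vertical tick. The levels run from ANAC102 at 102 CPM down to VND6 at 1.05 CPM, and the blue points of CTRL1 are the lowest for most of the abundant genes.

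The plot of levels by gene shows that the spread between replicates was wide for NAC036, NAP, and ORS1 and narrow for VNI2, ANAC078, and NAC027. At its lower end the counts are small. VND6, for example, had 15, 2, and 7 reads.

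The NAC genes were then grouped by role, and 60 of the 114 fell in at least 1 list. The lists were chosen with earlier results of these data known, so the medians of the lists are descriptions. All 7 genes of the stress and ABA list had reads in every replicate and a mean of at least 1 CPM, with a median of 21.3 CPM, compared with a median of 1.29 CPM over the 93 listed NAC genes and 7.47 CPM over all reference genes. Together they summed to 205, 320, and 281 CPM, lowest in CTRL1. ATAF1, which acts in ABA and drought signalling, had 16.4, 24.8, and 22.7 CPM. ANAC032, which responds to a range of stresses, averaged 9.57 ± 1.44 CPM. ANAC019 and ANAC055, which act together in jasmonate and ABA signalling, had the lowest CPM of the list, at 4.81 ± 0.496 and 2.18 ± 0.242 CPM.

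Of the 8 genes of the leaf senescence list, 7 had reads in every replicate and 7 had a mean of at least 1 CPM, with a median of 4.65 CPM. VNI2 and NAP were the highest. ORS1, a promoter of senescence, had 7.76, 10.2, and 20.9 CPM, and its close relative ORE1, a central activator of age-dependent senescence, had 3.20, 3.93, and 6.88 CPM. CTRL3 was the highest replicate for both. JUB1, a longevity gene that delays senescence, had 2.95, 7.45, and 3.51 CPM and stood highest in CTRL2. ANAC046, which promotes the breakdown of chlorophyll, averaged 1.79 ± 0.218 CPM, ANAC016, another promoter of leaf yellowing, 1.14 ± 0.505 CPM, and ANAC087 had 6, 0, and 3 reads.

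Genes outside the family that mark senescence were given beside them. SAG12, a cysteine protease and a classic marker of the late senescing leaf, had 0, 1, and 0 reads. Genes of chlorophyll breakdown did not all share an order of the replicates. NYC1, a chlorophyll b reductase, had 61.2, 56.7, and 121 CPM and was highest in CTRL3. PAO, which opens the chlorophyll ring, had 45.9, 52.3, and 44.8 CPM. NYE1, which removes magnesium from chlorophyll, had 25.6, 26.1, and 20.8 CPM. Both were highest in CTRL2 and lowest in CTRL3, although PAO was similar in CTRL1 and CTRL3. PPH, which removes the phytol chain, had 29.4, 38.3, and 30.7 CPM and was also highest in CTRL2. Over the 7 genes of this list with at least 60 reads, the median log2 difference of CTRL3 from the mean of the others was −0.13, with 3 of 7 above 0. Over all features with at least 60 reads, this median was 0.09, with 62.7% above 0. SAG13 was also lowest in CTRL3, with 35.3, 34.8, and 8.92 CPM. It was the 1 gene of 7 with enough reads that differed at least 2-fold in a replicate, beside 3.3% of all features. EIN3, an ethylene-signalling factor known to act upstream of ORE1, averaged 76.1 ± 6.53 CPM. SAG113 had 16, 33, and 29 reads, or 1.97, 4.47, and 4.24 CPM, and was lowest in CTRL1. The rest of the list had fewer reads, with 23, 12, and 23 for BFN1 and 11, 9, and 3 for SAG29. Whether senescence differed between the replicates was not tested, and in whole aboveground parts fewer cells of a type and less RNA per cell cannot be told apart.

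The membrane-tethered list held 15 genes, of which 14 were listed, all 14 with reads in every replicate, and 13 had a mean of at least 1 CPM. Their median was 10.6 CPM, and they summed to 139, 188, and 167 CPM, again lowest in CTRL1. ANAC078, known from the response to high light and to blocked proteasomes, had 26.5, 30.7, and 30.4 CPM. ANAC017 and ANAC013, which carry signals from stressed mitochondria to the nucleus, averaged 24.6 ± 2.91 and 5.99 ± 0.719 CPM. AOX1A, the alternative oxidase they are known to induce, averaged 55.4 ± 10.3 CPM, and UPOX, another mitochondrial stress gene, 4.84 ± 1.19 CPM.

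Further tethered factors were ANAC062, known from cold and pathogen responses, at 20.2 ± 5.71 CPM, NTL9 at 19.4 ± 1.72 CPM, ANAC089, held in the endoplasmic reticulum, at 17.8 ± 2.95 CPM, and TIP, the partner of a viral coat protein, at 14.5 ± 2.58 CPM. ANAC014, ANAC069, and ANAC053 averaged 10.7 ± 1.44, 10.6 ± 1.97, and 6.43 ± 2.31 CPM. NTL10 and NTM1 averaged 2.29 ± 0.372 and 1.53 ± 0.672 CPM, NTL8 had 2 reads in each replicate, and ANAC060 was not in the table. A membrane anchor is a hydrophobic stretch near the C-terminus, so the highest mean hydropathy over 19 residues was computed in the last 60 residues of each translated protein. It reached 1.6 in 14 of the 15 listed genes and in 1 of the other 99 NAC genes, NAC028 with 1.94. The exception in the list was NTL9, with −0.47. NTL9 has 3 annotated transcripts, and only its longest coding sequence was read. The list was drawn from what is known of these proteins, so the count is a description.

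Regulators of xylem and secondary walls were scarce in the rosette. All 14 genes of the list were in the table, 13 had a read in any replicate, 10 had reads in every replicate, and 5 had a mean of at least 1 CPM, with a median of 0.656 CPM. XND1, a brake on vessel formation, was the highest, with 43, 34, and 20 reads or 4.27 ± 1.22 CPM. VND3 had 9, 12, and 12 reads, SND2 averaged 1.39 ± 0.207 CPM, VND4 1.30 ± 0.0701 CPM, and VND6 1.05 ± 0.788 CPM. VND7, the master switch of vessel identity, had 7, 7, and 3 reads, VND5 2, 6, and 7 reads, and ANAC075 6, 5, and 3 reads.

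The remaining xylem regulators had at most 5 reads in any replicate. SND3 had 5, 1, and 4 reads, VND2 had 3, 4, and 1, VND1 had 2 reads in CTRL1, NST1 had 1 read in CTRL1, SND1 had 1 read in CTRL2, and NST2 was listed at 0. Genes outside the family that act in secondary walls were given beside them, and 5 of 7 had a mean of at least 1 CPM. The secondary wall cellulose synthases CESA4 and CESA8 averaged 1.81 ± 0.431 and 2.21 ± 0.526 CPM, and XCP2, a protease of dying vessel cells, had 17.9, 12.0, and 15.1 CPM.

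Lists for organ boundaries and roots were at or near the detection limit. CUC1, which separates cotyledons and organs, had 3, 1, and 3 reads, CUC2 had 2, 3, and 0, and CUC3 was listed at 0. Of the 4 root cap regulators, FEZ, BRN1, and BRN2 were not in the table, and SMB had 1, 1, and 0 reads.

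The seed regulators NAM and NARS1 were readily detected, at 12.2 ± 3.13 and 4.77 ± 0.360 CPM. SOG1, the master regulator of the DNA damage response, had 45, 38, and 39 reads or 5.46 ± 0.288 CPM, and ANAC044 and ANAC085, which act downstream of it, had at most 2 reads in any replicate. The partners of the histone demethylase JMJ14, ANAC050 and ANAC052, averaged 13.1 ± 0.406 and 14.8 ± 0.899 CPM, and JMJ14 itself averaged 10.3 ± 0.797 CPM. Of the pair that clears the nucleus from phloem sieve elements, ANAC045 had 64, 40, and 44 reads or 6.58 ± 1.24 CPM, while ANAC086 had 4, 1, and 1 reads. LOV1, which delays flowering in long days, had 39, 77, and 64 reads or 8.20 ± 2.99 CPM. Among the 54 NAC genes in no list, 12 had a mean of at least 1 CPM, among them NAC036 and NAC027.

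**Figure D2:**
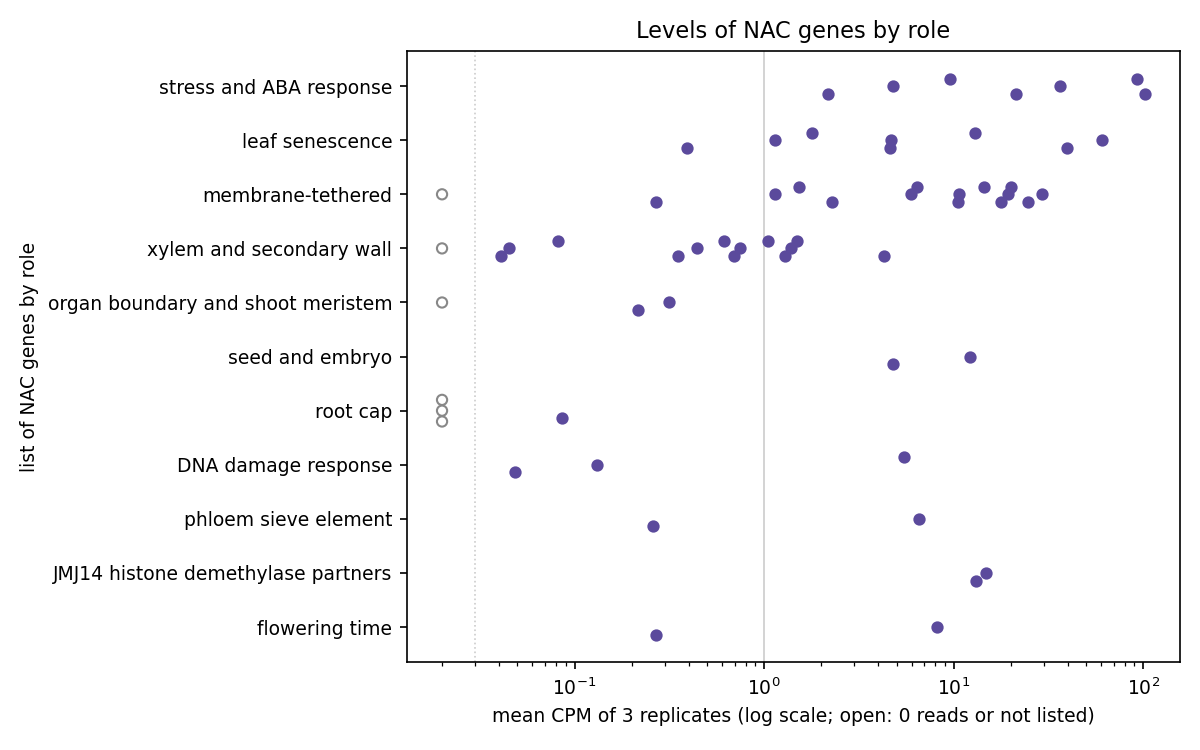
Mean CPM over the 3 ONT Pc replicates (log axis) of each NAC gene in the lists by role, with 1 point per gene, a line at 1 CPM, and open circles for genes with 0 reads or not in the table. All 7 stress and ABA genes lie above 1 CPM, whereas 9 of the 14 xylem genes and all 3 boundary genes lie below it.

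In the plot of levels by role, most genes of the stress, senescence, and membrane-tethered lists lie to the right of the line at 1 CPM, and SMB is the one root cap gene with a read. A gene in more than 1 list, such as ANAC016, appears in each.

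The replicates of this single group were compared to find NAC genes that differed between them. A gene was called when a replicate lay at least 2-fold above or below both of the others on log2(CPM + 0.5), among features with at least 60 reads in all. By this rule 2 of the 34 NAC genes were called, beside 3.3% of all 15233 features, and 2 of 34 is near that background. NAP was called because CTRL1 was low, which held for 1.31% of all features, and ORS1 because CTRL3 was high, which held for 0.709%. In the other 4 directions 0 of the 34 were called, beside 0.0328% of all features for CTRL1 high, 0.46% for CTRL2 high, 0.151% for CTRL2 low, and 0.768% for CTRL3 low.

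NAP had 168, 383, and 317 reads, or 20.7, 51.9, and 46.4 CPM. The 95% counting interval of CTRL1 was 17.7 to 24.1 CPM (exact Poisson), and that of the next replicate, CTRL3, was 41.4 to 51.8 CPM, so the intervals did not overlap. CTRL1 lay 2.21-fold below CTRL3 on the scale used. ORS1 had 63, 75, and 143 reads, or 7.76, 10.2, and 20.9 CPM. The interval of CTRL3 was 17.6 to 24.6 CPM, that of CTRL2 was 7.99 to 12.7 CPM, and the gap was 2.01-fold. Both genes were picked for their gaps, so intervals that lie apart add no separate support. The intervals cover counting error only.

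Just outside the threshold stood JUB1 with a gap of 1.98-fold, CTRL2 above, NAC036 with 1.96-fold, CTRL1 below, LOV1 with 1.86-fold, CTRL1 below, and ORE1 with 1.67-fold, CTRL3 above. Under a pseudocount of 1 NAP alone was called, beside 2.79% of all features. With median-of-ratios size factors NAP and JUB1 were called and ORS1 was not, beside 3.16%. Without CTRL1, ORS1 alone was called, 1 of 33 tested beside 3.45% of all features. Without CTRL3, NAP, LOV1, NAC036, and JUB1 were called, 4 of 33 beside 2.71%. With 2 replicates left, a call means a 2-fold difference between them.

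The promoters of both called genes are shown and were searched for a G-box, which is bound by many light- and ABA-related factors. Each sequence is the 250 bases before the annotated gene start in TAIR10.1, and capitals mark the G-box CACGTG.
NAP (chr1:26121830-26122079, + strand): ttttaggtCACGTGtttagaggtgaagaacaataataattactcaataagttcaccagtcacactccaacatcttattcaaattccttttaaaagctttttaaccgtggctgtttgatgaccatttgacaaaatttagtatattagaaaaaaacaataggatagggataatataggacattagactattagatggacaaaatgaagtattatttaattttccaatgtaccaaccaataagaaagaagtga
ORS1 (chr3:11033415-11033664, + strand): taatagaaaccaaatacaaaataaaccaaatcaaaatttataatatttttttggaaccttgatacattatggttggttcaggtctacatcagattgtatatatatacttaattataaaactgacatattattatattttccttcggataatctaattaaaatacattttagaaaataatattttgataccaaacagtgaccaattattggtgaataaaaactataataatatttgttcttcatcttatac
The NAP promoter held the G-box once, starting at position −242 from the gene start, and the ORS1 promoter held none in this window. Searched on both strands, CACGTG was found in 6.49% of 27443 promoters of this length and in 8 of 114 NAC promoters, those of ANAC014, ANAC019, NAC025, NAP, ANAC032, ANAC062, ANAC069, and NTL9. The evening element AAAATATCT, a motif of clock-controlled genes that does not overlap the G-box in letters, was found in 2.36% of all promoters and in 4 of 114 NAC promoters, those of VND5, ANAC046, ANAC089, and XND1, and in neither NAP nor ORS1. A match describes the letters and does not show binding.

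Across the 34 NAC genes, CTRL1 tended to be the lowest replicate. It was lowest for 26 of 34 (76.5%), beside 42.1% of all features, and CTRL2 was highest for 20 of 34 (58.8%), beside 35.0% of all features. The median log2 difference of CTRL1 from the mean of the others was −0.32 over NAC genes, with 29 of 34 below 0, and −0.07 over all features, of which 60.7% were below 0. With median-of-ratios size factors the medians were −0.24 (25 of 34 below) and 0.01 (47.9% below). Leaving out CTRL2 gave −0.21 over NAC genes and −0.10 over all features (63.7% below), so that the gap between them was smaller. Leaving out CTRL3 gave −0.34 and −0.06 (58.0% below). Genes of a family can vary together, so the 34 values are not independent, and no test was made of this shift.

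The median coefficient of variation between replicates was 17.2% over the 34 NAC genes and 13.9% over all features with at least 60 reads.

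**Figure D3:**
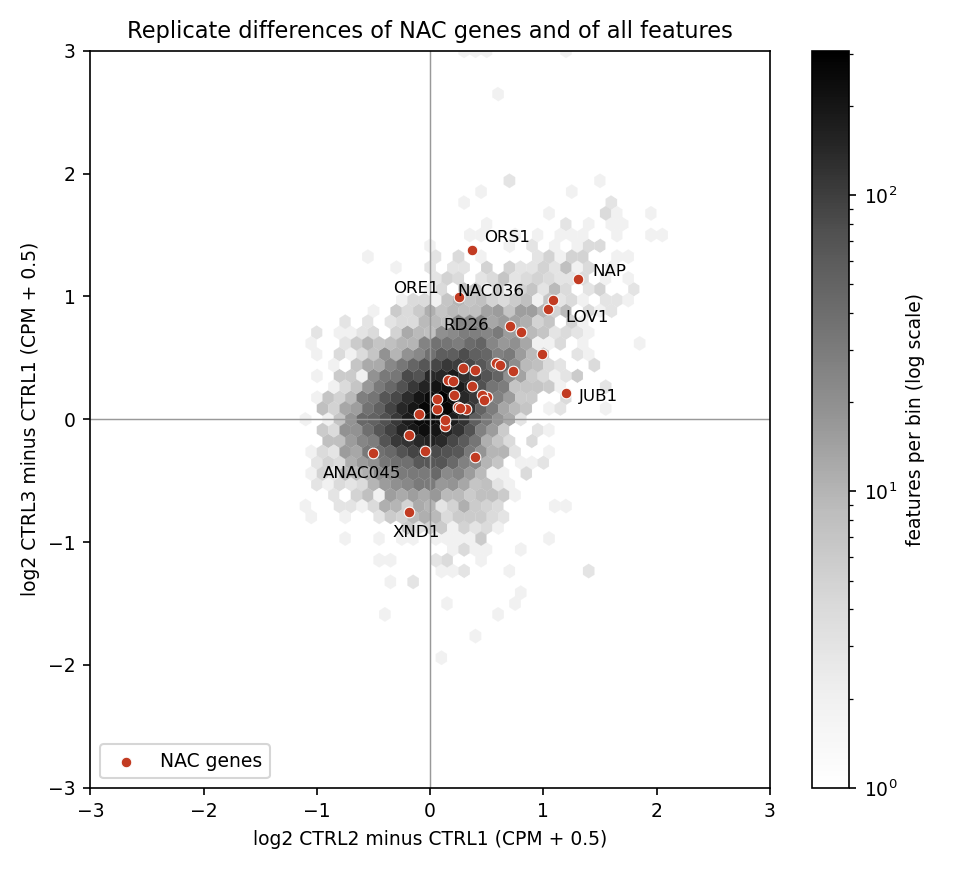
Difference on log2(CPM + 0.5) of CTRL2 minus CTRL1 (horizontal axis) and CTRL3 minus CTRL1 (vertical axis) for the 34 NAC genes with at least 60 reads (red points) over the 15233 features with the same filter (gray bins, darker for more features). Most red points lie right of and above 0, with NAP at the upper right, ORS1 at the top, and XND1 at the bottom.

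The plot of replicate differences places NAP, NAC036, and LOV1 together, low in CTRL1 and similar in CTRL2 and CTRL3, while ORS1 and ORE1 lie apart from them because of CTRL3. ANAC045, XND1, NARS1, and ANAC019 ran the other way, with CTRL1 the highest replicate. These were 4 of 34 (11.8%), beside 20.5% of all features. XND1 had 5.29, 4.60, and 2.93 CPM.

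The family was set beside 3 other transcription factor families taken by name from the same family list. NAC genes held 0.0642, 0.0931, and 0.0850% of the reads, with a mean of 0.0808 ± 0.0149%. WRKY genes, which act mainly in defence and senescence, held 0.0877 ± 0.0251%, AP2 genes, which include ethylene and cold response factors, 0.235 ± 0.0255%, and HLH genes, with the basic helix-loop-helix domain, 0.166 ± 0.00791%. NAC lay below AP2 by 0.155 ± 0.0107 percentage points and below HLH by 0.0848 ± 0.00948 percentage points, in 3 of 3 replicates each (exact two-sided sign-flip permutation p = 0.25, Benjamini-Hochberg adjusted 0.375 over 3 comparisons). NAC and WRKY were not separated, with a difference of −0.00693 ± 0.0104 percentage points, NAC higher in 1 of 3 replicates (exact permutation p = 0.5, adjusted 0.5). CTRL1, the replicate in which NAC was higher, ran against the mean difference and made it smaller. Without CTRL1 the difference was −0.0129 ± 0.00108 percentage points, without CTRL2 −0.00356 ± 0.0121, and without CTRL3 −0.00433 ± 0.0132.

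Per gene the NAC family was the lowest of the 4. Its listed genes had a median of 1.29 CPM and 0.802 CPM per kb, compared with 3.22 CPM and 1.75 CPM per kb for WRKY, 3.70 and 2.51 for AP2, and 4.49 and 2.96 for HLH. A mean of at least 1 CPM was reached by 53.8% of listed NAC genes, 65.2% of WRKY, 72.1% of AP2, 77.3% of HLH, and 76.4% of all reference genes. These medians and shares are descriptions of different genes and carry no test.

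**Figure D4:**
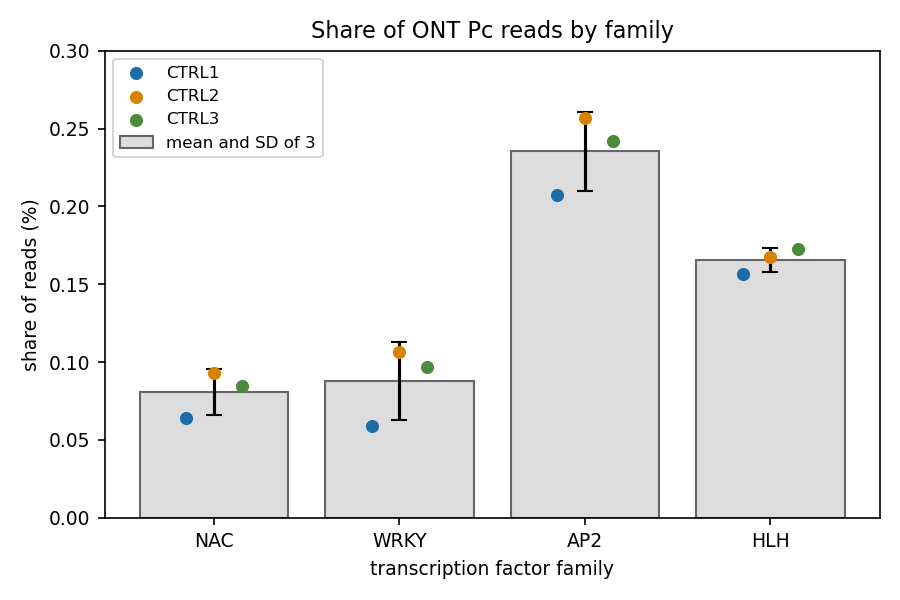
Share of all ONT Pc reads in percent held by the NAC, WRKY, AP2, and HLH families, with bars and error bars for the mean and SD of 3 replicates and a point per replicate. NAC and WRKY overlap at 0.0808 and 0.0877%, and both lie below AP2 at 0.235% and HLH at 0.166%.

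The plot of family shares also shows CTRL1 as the lowest replicate of all 4 families. For WRKY the values were 0.0592, 0.107, and 0.0971%.

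NAC genes not in the table had shorter annotated transcripts than the abundant ones. The median annotated transcript was 1632 bp for the 50 NAC genes with at least 1 CPM, 1449 bp for the 43 listed below it, and 960 bp for the 21 not in the table. The family has 39 genes on chromosome 1, 8 on chromosome 2, 27 on chromosome 3, 11 on chromosome 4, and 29 on chromosome 5. Neighbours within 20000 bp formed 14 clusters of 38 genes, of which 27 were listed and 19 had at least 1 CPM, beside 31 of the 76 genes outside clusters. The largest cluster, chr1:22215168-22247411, holds 6 genes, of which 3 were listed and 0 reached 1 CPM. The 3 genes of chr3:20947107-20956867 were not in the table, whereas all 3 of ANAC050, ANAC052, and ANAC053, side by side at chr3:3264194-3274176, had at least 1 CPM.

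Gene overlaps limit some levels, since the sources used do not state whether counting used the strand. Of the NAC genes, 18 overlap another annotated gene, 5 of them on the same strand and 14 on the opposite strand, and 6 of the 10 most abundant are among the 18. NAC027 shares 514 bp, 86.7% of its length, on the same strand with AT1G64100, which is also in the family by rule and had 0, 0, and 1 reads against 218, 217, and 183 of NAC027. AT1G64100 was counted as a separate NAC gene. Its longest annotated protein has 806 residues, against 161 for NAC027, and both had the same highest C-terminal hydropathy, 0.474. The NAC domain of AT1G64100 may therefore be that of NAC027, which was not tested. ANAC045 shares 1096 bp with GSTF11 on the opposite strand, which had 41, 30, and 38 reads. NAC088 lies wholly within the aquaporin gene SIP1;2 on the opposite strand, with 13, 13, and 5 reads against 34, 32, and 19. For these genes, the part of the reads that belongs to each gene cannot be told apart.

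In the PacBio list, isoforms are numbered by locus, without reads, lengths, positions, or pairing with reference genes. The NAC family had 36 isoforms at 18 loci, a mean of 2 and a median of 1.5 per locus. Over all families the mean was 3.35 and the median 2. At 9 loci at least 2 isoforms were listed, 27 in all, and at the other 9 a single one. Locus PB.6365 held the most, 6 isoforms, followed by PB.2869 and PB.961 with 4 each, PB.13125 with 3, and PB.10088 with 2. None of the 36 was listed in another family.

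PB.6365 stood apart, because 95 isoforms of this locus are spread over 73 families, whereas at the other 17 loci NAC was the sole family. Without PB.6365, 34 of the 40 isoforms of both families named for No apical meristem were left. The reference part listed 167 transcripts of the 114 genes, with 76 genes of 1 transcript and 38 with more, up to 4.

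Per 100 reference genes, the PacBio list held 15.8 NAC loci, 12.3 AP2 loci, 26.1 HLH loci, and 33.1 loci over all families. The 73 WRKY genes had 39 isoforms at 19 loci, the 146 AP2 genes 27 at 18, and the 138 HLH genes 96 at 36. These are counts from 1 library and have no replicate check.

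**Figure D5:**
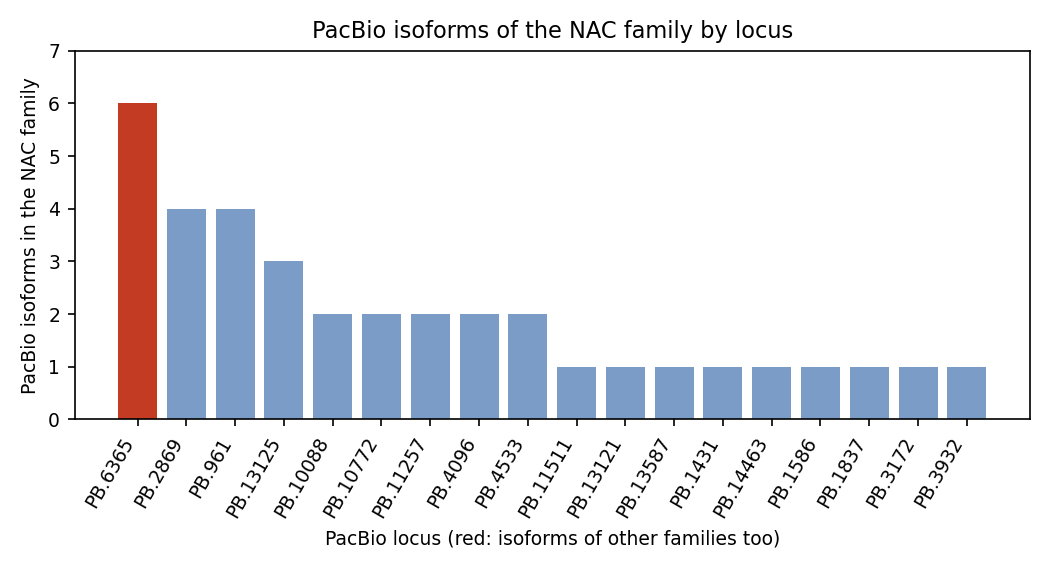
Number of PacBio isoforms in the NAC family at each of its 18 loci, with the locus that also holds isoforms of other families in red. The locus PB.6365 has 6 isoforms, PB.2869 and PB.961 have 4 each, and 9 loci have 1.

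The plot of isoforms by locus shows that the number falls off quickly after the first few loci. The ONT Pc table uses reference gene identifiers, so a locus cannot be set beside a level.

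The 7 genes named for the C-terminal domain are not NAC transcription factors by domain. AT3G47680 had 17.1, 19.2, and 17.8 CPM, with a mean of 18.1 ± 1.07 CPM, but lies wholly within AT3G47675 on the same strand, which had 43, 43, and 42 reads. GSTT3 and GSTT2, which are glutathione transferases of the theta class, averaged 9.64 ± 1.05 and 3.90 ± 1.30 CPM. AT1G24380 and AT2G13760 had 1 read each, both in CTRL2, and AT1G66235 and AT4G10230 were not in the table. In the PacBio list this family had 4 isoforms at 3 loci.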

How the data were processed

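ONT Pc values were deposited by the authors as CPM per gene. Per the paper's methods, reads were base-called with Guppy, made into consensus sequences with Racon, mapped with GMAP, and counted with Salmon, while the labels' processing notes name minimap2 and TAIR10. The PacBio file is the authors' list of protein families with transcript identifiers and holds no values. Each CPM column was divided by the value of 1 read, and 100% of values came out whole. Since there is 1 group, no count test was run. Each column was rescaled to its own total, and log2 values used a pseudocount of 0.5.

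Only CTRL1 to CTRL3 were compared. The methods describe pooled plants per replicate but do not say whether ONT libraries came from separate RNA, so the spread may be partly technical. Named genes were the members of the role lists, the 10 highest, and those called at least 2-fold apart, with the PacBio loci of most isoforms. Other genes named for their level, overlap, cluster, motif, tail, or sequence identity were chosen after their values were seen. The members and lists were chosen with earlier results of these data known. Differences used exact sign-flip permutation tests. Coordinates, transcript lengths, coding sequence, and promoters came from RefSeq TAIR10.1, the longest coding sequence per gene being used. Hydropathy was the Kyte-Doolittle mean over 19 residues. Coding sequences were aligned globally, with a minimum of 50% of the longer sequence aligned. Read recovery, the fold calls, and the coding-sequence identity were tested on simulated data, and the other procedures were not. The simulated fold changes were larger than 2-fold and had counting noise only, so gaps near 2-fold were not covered. Of the per-sample columns, 0 were left out. Software was Python 3.11.15 with Biopython 1.88, matplotlib 3.10.9, scipy 1.17.1, pandas 2.3.3, and numpy 2.4.6.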

Additional observations from a re-analysis of the deposited data

How the results depend on the processing

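With CPM as deposited, in which CTRL2 and CTRL3 are divided by more than their own reads, the mean NAC share fell from 0.0808% to 0.0449%, and the calls rose from 2 to 6 genes beside 50.4% of all features. The same setting lowered the means of 10 of 11 genes (the 10 highest and ORS1) by more than their SD, and every other setting run left all 11 within it. Detected genes numbered 51 with more than 3 reads in every replicate and 50 with a mean of at least 1 CPM, compared with 86 with any read. The 2-fold calls numbered 1 of 34 with a pseudocount of 1, beside 2.79% of all features. With no filter on low values they numbered 5 of 93, beside 3.93%. They numbered 1 of 33 without CTRL1 (3.45% of all features), 2 of 33 without CTRL2 (3.4%), and 4 of 33 without CTRL3 (2.71%). Leaving out a replicate gave a NAC share of 0.0746 to 0.0890%, 81 to 84 detected genes, and a difference between ANAC102 and ATAF2 of 6.41 to 11.7 CPM. Between NAC and WRKY, AP2, and HLH the direction stayed the same in every setting run, although the difference from WRKY ranged from −0.0129 to −0.00356 percentage points when each replicate was left out, and with 3 replicates no exact permutation p can fall below 0.25. The settings without PB.6365 and those for the difference of CTRL1 were chosen after seeing the data. No paired analysis was possible because there is a single group of ONT Pc replicates, so no groups share replicate numbers. Differences between genes or families were taken within each replicate throughout. Depth limits the low genes, since 21 NAC genes with a read had at most 3 reads in every replicate.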

Other observations

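Among the NAC genes in no role list, NAC041 was the most abundant after NAC036 and NAC027. It had 134, 141, and 141 reads in the replicates, CTRL1 first, or 18.7 ± 2.09 CPM (SD, n = 3) and 14.2 CPM per kb. NAC1, known from auxin signalling in lateral roots, had 83, 83, and 67 reads, or 10.4 ± 0.738 CPM, although the root genes EXPA7 and COBL9 were not in the table. NAC1 overlaps 2 genes on the opposite strand, and the larger overlap covers 29.8% of its length. NAC082, a mediator of the response to ribosomal stress, averaged 9.21 ± 1.47 CPM, and CTRL1 was its lowest replicate. NAC103, known from the response to unfolded proteins in the endoplasmic reticulum, had 1, 1, and 2 reads. NAC090 had 10, 24, and 25 reads, too few for the 2-fold rule with 60 reads, and was called when the minimum was 30 reads.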
